A study of Mus musculus with 15 samples.

Results

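The BCL2 family decides whether the outer membrane of mitochondria stays intact or is opened during apoptosis. It is described here through 10 of the 25329 genes measured in mouse ileum: Bax, Bak1, Bid, Bbc3, Pmaip1, Bcl2l11, Bcl2l1, Mcl1, Bcl2a1d and Bcl2l15. The genes were chosen by name, as members of the family, with earlier results of these data known. Counts of members called are therefore not those of an unselected set. Each gene was found once in the table. BAX and BAK are the effectors that form pores in the membrane. BH3-only proteins (BID, PUMA, NOXA and BIM) switch the effectors on or block their guards, and BCL-XL, MCL1 and A1 are guards that bind both kinds and keep the cell alive. In the intestine this route removes damaged and shed epithelial cells, and BCL-XL and MCL1 are known to protect the epithelium.

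Bulk RNA sequencing was done on whole ileum from 15 libraries, 5 for each of 3 genotypes, to address the part that RIPK1 kinase activity has in the ileitis that follows loss of the kinase TAK1. DHO mice were TAK1 IEC-KO, that is, without TAK1 in intestinal epithelial cells, and carried Ripk1 D138N on both alleles, a change that inactivates the RIPK1 kinase. HO mice were TAK1 IEC-KO with no Ripk1 change named. WT mice were Tak1f/f, with floxed alleles and no deletion named. Mice of all 3 genotypes were given 80 mg/kg tamoxifen by intraperitoneal injection on 3 days, so the controls had the drug too, and tissue was taken 3 days post induction. The labels do not name the Cre driver, the age, the sex, the litter or a batch, and they do not say whether each library is 1 mouse, so p-values measure only the spread between these libraries. TAK1 is encoded by Map3k7, whose level ran from 8.31 to 10.1 FPKM in DHO, from 6.88 to 9.42 in HO and from 9.39 to 11.2 in WT libraries, so that HO and WT overlapped. FPKM are reads per length of gene and per depth of library. In whole ileum they include the cells outside the epithelium, where the genotype names no deletion.

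Depth was even, with whole reads recovered over all genes that summed to between 37531647 (WT 2) and 39702318 (DHO 3) per library, and the members held between 26 reads (Bcl2a1d in DHO 3) and 21771 reads (Mcl1 in HO 2). Some libraries stood apart in their tissue markers. The sum of 6 markers of the proximal small intestine was 471 FPKM in DHO 3, 422 in DHO 4 and 2648 in HO 1. It was 14.9 to 43.9 in the other libraries. Of the 6, Fabp1, Lct and Gata4 were highest in those 3 libraries. Slc25a48 went the other way: 4.55 in DHO 3, 4.13 in DHO 4 and 0 in HO 1, against 8.89 to 33.9 elsewhere. The sum of 4 ileum markers was 15.8 FPKM in HO 1, 2267 in HO 2, 4681 in HO 3 and 3741 in HO 4. It was 13340 in HO 5, 7624 to 10043 in DHO and 7340 to 12108 in WT. The summed level of 7 B cell markers was 57.4 FPKM in DHO 1, 52.2 in HO 2 and 122 in HO 4, against 8.39 or less in the others. Each result below is therefore also given without HO 1, DHO 3 and DHO 4, or without HO 2, HO 4 and DHO 1, where that ends a call or makes one.

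Sequences are shown for Bcl2a1d, whose reads are hard to tell from those of its copies, and for the promoters of Bcl2l1 and Bcl2a1d. Mouse A1 is encoded by near-identical copies on chromosome 9, and the first 90 bases of their coding sequences, from GENCODE M21 transcripts, are printed 5' to 3' with capitals at the 6 positions where the 3 copies are not all alike. Bcl2a1d lies at chr9:88723288-88731850, Bcl2a1a at chr9:88956920-88962416 and Bcl2a1b at chr9:89199273-89207838 (GRCm38.p6).
Bcl2a1d: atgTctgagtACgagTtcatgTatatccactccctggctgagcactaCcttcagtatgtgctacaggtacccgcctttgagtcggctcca
Bcl2a1a: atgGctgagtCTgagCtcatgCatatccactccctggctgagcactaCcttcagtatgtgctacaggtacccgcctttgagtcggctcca
Bcl2a1b: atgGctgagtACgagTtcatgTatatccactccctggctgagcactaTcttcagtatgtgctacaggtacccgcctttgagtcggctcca
Over the whole coding sequence of 519 bases Bcl2a1d matched Bcl2a1a at 98.7% of bases and Bcl2a1b at 98.8%. How reads that match several copies were counted is not given in the sources used here, so the level of each copy is uncertain and the sum of the copies is given beside it.

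Promoter windows, 250 bases before to 50 after a start site, were taken from RefSeq (GRCm38.p6) and scanned for 9 of the 10 members, 14 windows in all. The windows of Bcl2l1 and Bcl2a1d that held a match are printed 5' to 3' along the gene's strand, with the match in capitals, because those genes rose in HO ileum. Of the other members called higher in HO against WT, Mcl1 had no match in its window and Pmaip1 was not scanned. The Bcl2l1 window is chr2:152830668-152830967 on the minus strand, 1 of 3 windows of this gene, and the Bcl2a1d window is chr9:88731801-88732100 on the minus strand.
Bcl2l1: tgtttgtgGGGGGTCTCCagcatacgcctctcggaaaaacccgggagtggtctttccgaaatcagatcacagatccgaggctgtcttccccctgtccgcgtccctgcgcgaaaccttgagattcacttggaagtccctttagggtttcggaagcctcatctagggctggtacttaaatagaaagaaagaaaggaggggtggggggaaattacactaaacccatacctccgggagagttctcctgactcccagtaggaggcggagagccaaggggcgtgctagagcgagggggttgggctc
Bcl2a1d: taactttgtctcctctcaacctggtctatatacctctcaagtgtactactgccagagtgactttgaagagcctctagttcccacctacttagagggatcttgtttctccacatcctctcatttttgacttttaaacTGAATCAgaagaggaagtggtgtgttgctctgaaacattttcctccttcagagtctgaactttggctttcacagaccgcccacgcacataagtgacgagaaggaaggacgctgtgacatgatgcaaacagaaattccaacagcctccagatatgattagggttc
The capitals in the Bcl2l1 window are a kappaB site at position -242 from the start, a motif bound by NF-kappaB proteins. A kappaB site was found in 2 of the 14 windows, this one and a window of Bbc3, and in 8.46% of all 32851 promoter windows. Bbc3 was not called in HO against WT. The capitals in the Bcl2a1d window, TGAATCA at position -114, match the AP-1 pattern used here, TGANTCA, in which N may be any base. That loose pattern was found in 1 of the 14 windows and in 7.81% of all windows. A CCAAT box was found in 3 of the 14 windows and in 37.4% of all, and no match to a CRE (TGACGTCA), a STAT site (TTCNNNGAA) or the interferon response element was found in the 14 windows. All motifs were searched on both strands. These matches describe letters in the reference genome, and binding was not measured.

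In WT ileum Bak1 was the most abundant member and Bbc3 and Bcl2l11 the least. Bak1 had the highest level, 140 ± 3.77 FPKM (SD, n = 5), which is above that of 98.0% of all genes. It was followed by Mcl1 (46.4 ± 3.00), Bax (38.0 ± 1.96), Bcl2l15 (33.1 ± 7.74), Pmaip1 (27.8 ± 5.12), Bcl2l1 (14.0 ± 0.990), Bid (11.9 ± 1.39), Bcl2a1d (2.66 ± 0.952), Bbc3 (1.49 ± 0.334) and Bcl2l11 (0.765 ± 0.173). Neighbours whose libraries overlapped were Bax and Bcl2l15, Bcl2l15 and Pmaip1, Bcl2l1 and Bid, and Bcl2a1d and Bbc3. The plot of levels by library shows each member in all 15 libraries.

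**Figure D1:**
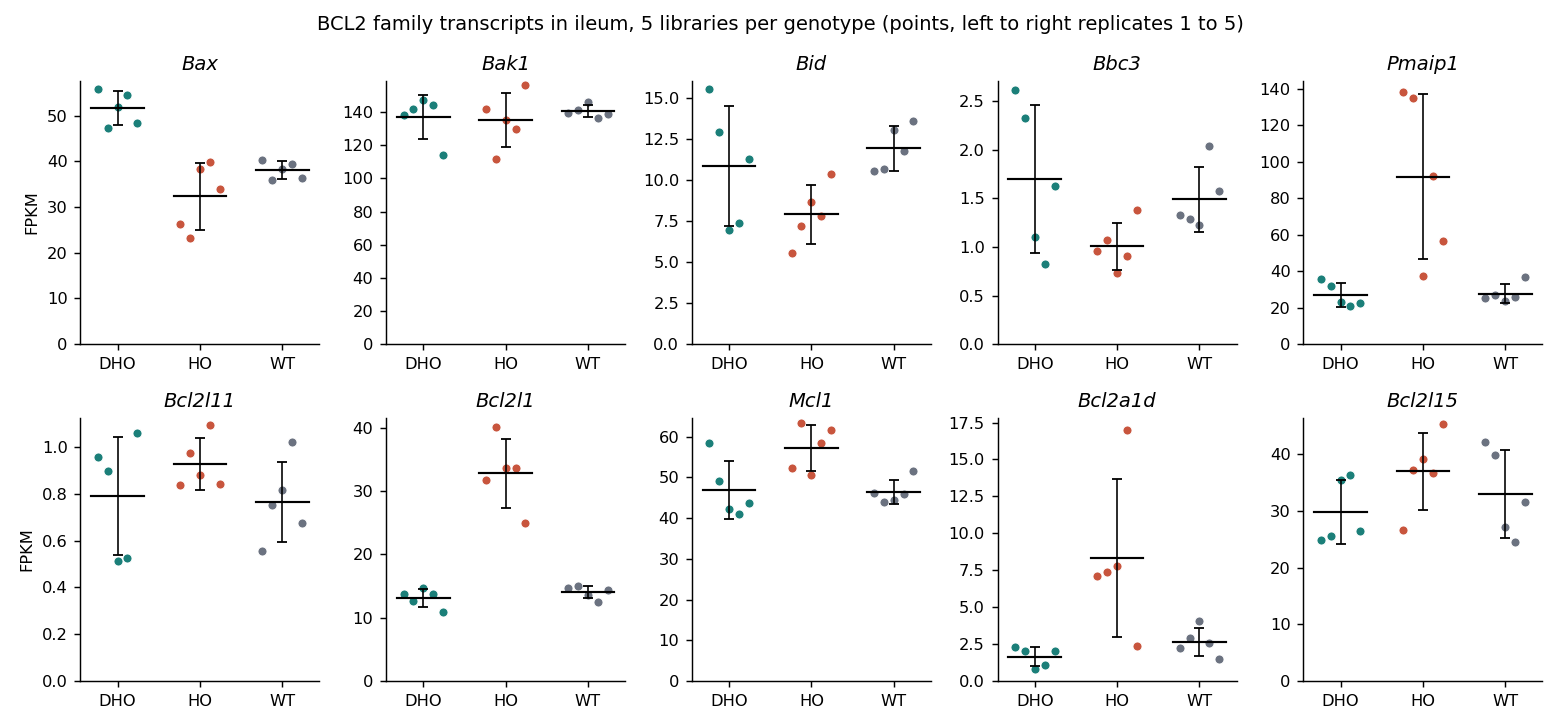
Level of each of the 10 genes in FPKM (vertical axis, linear, from 0) in DHO, HO and WT libraries; points are libraries, left to right replicates 1 to 5, and bars are the mean and SD. Pmaip1 and Bcl2l1 are higher in every HO library than in any DHO or WT library, and Bax is higher in every DHO library than in any other.

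The comparisons used differences of group means of log2(FPKM + 1) from a limma fit over all genes that reached 1 FPKM in at least 5 libraries. The threshold for a call was 0.05 on p-values adjusted by the Benjamini-Hochberg method over the 11332 genes tested. The filter was passed by 9 of the 10 members, and Bcl2l11 was tested in the same fit without it. In HO against WT 4 members were called higher (Pmaip1, Bcl2l1, Bcl2a1d and Mcl1) and 1 lower (Bid), where 12.4% of all genes tested were called higher and 42.9% lower (55.4% in all). In DHO against HO 1 member was called higher (Bax) and 4 lower (Pmaip1, Bcl2l1, Bcl2a1d and Mcl1), where 42.8% of all genes were called higher and 13.4% lower (56.1% in all). Both comparisons share the HO libraries. Without HO 2, HO 4 and DHO 1 the members called in HO against WT were 2 higher (Pmaip1 and Bcl2l1) and 0 lower. Without HO 1, DHO 3 and DHO 4 the members called higher in DHO against HO were 3 (Bax, Bid and Bbc3). In DHO against WT limma called 0 members, 1 had an unadjusted p under 0.05, and 0.238% of all genes tested were called (0.0794% higher and 0.159% lower). The voom fits on recovered reads also called 0 members there.

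The median change of the 9 members was 0.17 in HO against WT and -0.29 in DHO against HO, where the median over all genes tested was -0.25 and 0.25. It was -0.06 in DHO against WT, where that of all genes was 0.00. The median of all genes depends on scaling: with FPKM scaled by median-of-ratios factors it was -0.03 in HO against WT and 0.04 in DHO against HO. The share of calls that were lower in HO against WT was 77.6%, and 53.4% with that scaling. In DHO against HO it was 23.8%, and 44.7% with that scaling. The 4 members called higher in HO and the Bax call in DHO were also made under quantile normalization and under both median-of-ratios settings.

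**Figure D2:**
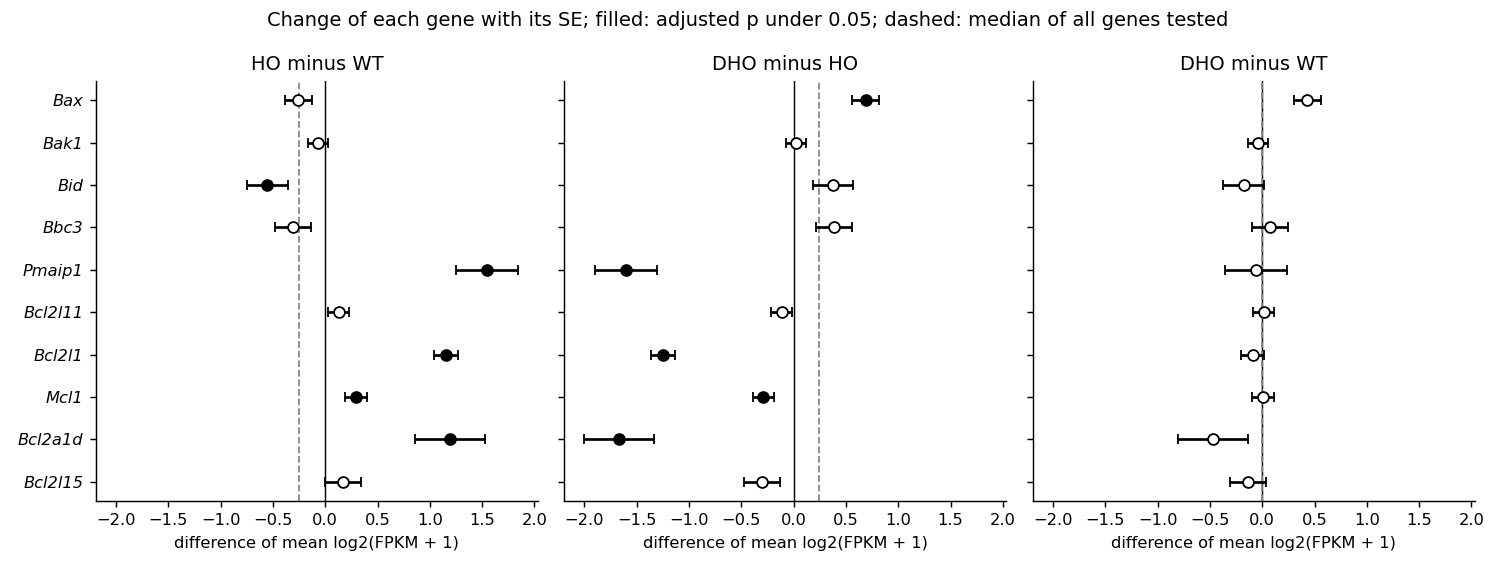
Difference of mean log2(FPKM + 1) for each gene (horizontal axis, points with SE) in HO minus WT, DHO minus HO and DHO minus WT; filled points have an adjusted p under 0.05 and the dashed line is the median of all genes tested. Pmaip1, Bcl2l1 and Bcl2a1d lie farthest to the right in HO minus WT and farthest to the left in DHO minus HO, and no point is filled in DHO minus WT.

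Among the effectors, Bax was higher in DHO than in HO ileum and no change of Bak1 was called. Bax had 55.9, 47.4, 52.0, 54.5 and 48.5 FPKM in DHO libraries 1 to 5, 26.2, 23.1, 38.4, 39.8 and 34.0 in HO, and 40.4, 35.9, 38.3, 39.5 and 36.2 in WT. Every DHO library was above every HO and every WT library, and HO 1 and HO 2 were the lowest of all. Bax rose by 0.69 in DHO against HO (SE 0.13, limma adjusted p = 0.000451), and 27.9% of all genes tested had every DHO library above every HO library. In HO against WT the change was -0.26 (SE 0.13, adjusted p = 0.103), close to the median of all genes tested. It was called lower without HO 3 (-0.33) or without HO 4 (-0.34), and it was 0.0023 with median-of-ratios scaling. Set against WT, the DHO libraries differed by 0.43 (SE 0.13, unadjusted p = 0.00466, adjusted p = 0.298). That difference was called in a fit of the DHO and WT libraries alone, and 2.44% of all genes tested had every DHO library above every WT library (4.4% had groups that did not overlap). In a bulk sample fewer cells of a type and less RNA per cell cannot be told apart, here and for every gene below.

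Bak1, the partner effector, had 138, 142, 147, 144 and 114 FPKM in DHO libraries, 142, 112, 135, 130 and 156 in HO, and 139, 141, 146, 136 and 139 in WT. The groups overlapped, with HO 2 lowest and HO 5 highest of the 15. Its changes were -0.07 (SE 0.10) in HO against WT, 0.03 in DHO against HO and -0.04 in DHO against WT, and none was called. The sign of the first 2 turned with scaling: with median-of-ratios factors they were 0.20 and -0.22, also not called. Bak1 lies on the minus strand inside Ggnbp1 on the plus strand, whose mean level was 0.366 FPKM or less in each group, and whether counting used the strand is not given in the sources used here.

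The BH3-only genes went different ways. Pmaip1, which encodes NOXA, a protein that binds MCL1, was higher in HO than in DHO or WT ileum. It had 35.5, 32.1, 23.1, 21.2 and 22.4 FPKM in DHO libraries, 138, 135, 37.5, 92.4 and 56.6 in HO, and 25.3, 27.2, 23.8, 26.0 and 36.7 in WT. Every HO library was above every DHO and WT library, but HO 3 only just passed WT 5, while HO 1 and HO 2 stood far above. Pmaip1 rose by 1.54 in HO against WT (SE 0.30, limma adjusted p = 0.000593), and its mean FPKM was 3.31-fold higher. That change was above those of 98.4% of genes tested. It fell by 1.60 in DHO against HO (SE 0.30, adjusted p = 0.000395), where 5.44% of all genes tested had every DHO library below every HO library, and in DHO against WT the change was -0.06 (SE 0.30). Both calls were made in all 25 alternative settings, with changes from 1.25 to 1.90 in HO against WT and from -1.96 to -1.26 in DHO against HO.

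Bid, whose protein is cut by caspase-8 and links death receptors to mitochondria, was lower in HO. It had 15.5, 13.0, 6.98, 7.40 and 11.3 FPKM in DHO libraries, 5.56, 7.19, 8.64, 7.80 and 10.4 in HO, and 10.5, 10.6, 13.1, 11.8 and 13.6 in WT. Every HO library was below every WT library, as was so for 29.8% of all genes tested, and DHO 3 and DHO 4 were as low as HO. Its change in HO against WT was -0.55 (SE 0.19, limma adjusted p = 0.0246), and Bid was called in 17 of 25 alternative settings. It lost the call with quantile normalization (-0.30), with median-of-ratios scaling (-0.31), with voom and those factors (-0.29), without the filter (-0.55), without HO 2, HO 4 and DHO 1 (-0.52), and without HO 1 (-0.45), WT 3 (-0.52) or WT 5 (-0.51). The change in DHO against HO was 0.37 (SE 0.19, adjusted p = 0.110), and 0.59 and called without HO 1, DHO 3 and DHO 4. It was also called without DHO 3 (0.50) and without DHO 4 (0.48).

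Bbc3, which encodes PUMA, a target of p53, had 2.61, 2.32, 1.10, 0.828 and 1.62 FPKM in DHO libraries, 0.956, 1.07, 0.732, 0.909 and 1.38 in HO, and 1.33, 1.28, 1.23, 2.04 and 1.58 in WT. DHO 1 and DHO 2 were the highest, and DHO 4 and HO 3 the lowest. Its changes were -0.31 (SE 0.17, adjusted p = 0.136) in HO against WT, 0.39 (SE 0.17, adjusted p = 0.0666) in DHO against HO and 0.08 in DHO against WT. The added 1 FPKM draws changes of so low a gene toward 0. With a pseudocount of 0.1 Bbc3 changed by -0.53 in HO against WT and 0.61 in DHO against HO, also not called. The change in DHO against HO was 0.65 and called without HO 1, DHO 3 and DHO 4, and it was called without DHO 3 (0.46), without DHO 4 (0.51) or without HO 5 (0.45). Within DHO, Bid and Bbc3 were both lowest in DHO 3 and DHO 4, the libraries with high proximal marker sums. The part of those markers in the result was not tested.

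Bcl2l11, which encodes BIM, stayed near or below 1 FPKM. It had 0.958, 0.896, 0.513, 0.528 and 1.06 FPKM in DHO libraries, 0.839, 0.977, 0.882, 1.10 and 0.842 in HO, and 0.558, 0.753, 0.816, 1.02 and 0.677 in WT, from 206 to 433 reads. The groups overlapped. In the fit without the filter, where 27.4% of 24836 genes were called in HO against WT and 28.5% in DHO against HO, its changes were 0.13 (SE 0.10, adjusted p = 0.385) and -0.12 (adjusted p = 0.434). Its change was 0.01 in DHO against WT, where 0.0805% of genes were called. At this level the added 1 FPKM draws a change toward 0. Bcl2l11 was called higher in HO with quantile normalization (0.20), median-of-ratios scaling (0.26) and voom with the same factors (0.56), and called lower in DHO against HO in the last 2.

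The guards among the members, Bcl2l1, Mcl1 and Bcl2a1d, were each called higher in HO against WT and lower in DHO against HO. The guards Bcl2 and Bcl2l2, which are not members, were called in neither. Bcl2l1, which encodes BCL-XL at chr2:152758732-152833803, had 13.7, 12.6, 14.7, 13.8 and 10.9 FPKM in DHO libraries, 31.7, 40.1, 33.7, 33.6 and 24.9 in HO, and 14.6, 15.0, 13.6, 12.5 and 14.3 in WT. Every HO library was above every DHO and WT library, as was so against WT for 6.19% of all genes tested, and DHO and WT overlapped. Bcl2l1 rose by 1.16 in HO against WT (SE 0.11, limma adjusted p = 3.28e-06), a 2.34-fold higher mean FPKM. It fell by 1.25 in DHO against HO (SE 0.11, adjusted p = 2.05e-06), and in DHO against WT the change was -0.09 (SE 0.11). Its RefSeq span overlaps that of Cox4i2 on the plus strand, whose mean level was 0.754 FPKM or less in each group. Both calls were made in all 25 alternative settings, with changes from 1.04 to 1.53 and from -1.63 to -1.15.

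Mcl1, a short-lived guard that NOXA binds, changed little in size. It had 58.5, 49.2, 42.2, 41.1 and 43.7 FPKM in DHO libraries, 52.2, 63.5, 50.6, 58.4 and 61.7 in HO, and 46.3, 44.0, 44.4, 45.9 and 51.5 in WT. HO 3 was below WT 5 and the other 4 HO libraries were above all WT libraries, while DHO 1 stood among the HO libraries. The change was 0.29 (SE 0.10, limma adjusted p = 0.0268) in HO against WT and -0.29 (SE 0.10, adjusted p = 0.0280) in DHO against HO. The first was called in 20 of 25 alternative settings and lost without HO 2, HO 4 and DHO 1 (0.23), and without HO 2 (0.26), HO 4 (0.29), WT 2 (0.28) or WT 3 (0.28). The second was called in 17 of 25 and lost in a fit of only DHO and HO (-0.29), without HO 1, DHO 3 and DHO 4 (-0.22), and without each of DHO 3 (-0.25), DHO 4 (-0.25), DHO 5 (-0.27), HO 2 (-0.25), HO 4 (-0.28) and HO 5 (-0.26).

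Bcl2a1d, a copy of A1, the NF-kappaB-inducible guard of blood cells, had 2.27, 2.05, 0.812, 1.07 and 1.99 FPKM in DHO libraries, 7.08, 7.35, 7.77, 17.0 and 2.38 in HO, and 2.25, 2.89, 4.09, 2.58 and 1.49 in WT. HO 5 lay within the WT libraries and the other 4 HO libraries were above all of them, with HO 4 the highest. Bcl2a1d rose by 1.19 in HO against WT (SE 0.33, limma adjusted p = 0.00722), and its mean FPKM was 3.13-fold higher. It fell by 1.67 in DHO against HO (SE 0.33, adjusted p = 0.000701), where the groups did not overlap. Of all genes tested, 5.44% had every DHO library below every HO library. The added 1 FPKM draws changes at this level toward 0, and with a pseudocount of 0.1 they were 1.43 and -2.12. In DHO against WT the change was -0.47 (SE 0.33, adjusted p = 1.00). Without HO 2, HO 4 and DHO 1 the rise in HO was 0.80 and not called. The rise was called in the other 24 alternative settings.

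Among HO libraries the copies of A1 and 3 sums of blood cell markers were highest in HO 4 and lowest in HO 5. HO 3 was above HO 2 in the A1 and macrophage sums and below it in the neutrophil and B cell sums. The sum of Bcl2a1d, Bcl2a1a and Bcl2a1b ran from 2.88 to 9.02 FPKM in DHO, from 6.72 (HO 5) to 61.6 (HO 4) in HO and from 7.24 to 9.94 in WT. In HO against WT the change was 1.39 for Bcl2a1a and 1.38 for Bcl2a1b, and in DHO against HO it was -1.79 for Bcl2a1a and -1.80 for Bcl2a1b, all called. Neither rise was called without HO 2, HO 4 and DHO 1, where Bcl2a1a no longer passed the filter. The summed level of 9 neutrophil markers, of which 2 passed the filter and Mpo was at 0 in all libraries, ran from 0.410 to 1.71 FPKM in DHO, from 2.67 (HO 5) to 32.8 (HO 4) in HO and from 0.724 to 1.71 in WT. That of 8 macrophage markers, all of which passed, ran from 98.5 to 277 FPKM in DHO, from 140 (HO 5) to 702 (HO 4) in HO and from 164 to 326 in WT. Its largest parts were Lyz2 and the C1q genes. Adgre1 ran lower in HO (0.740 to 2.52) than in WT (1.45 to 3.40), with overlap. Cd14 in HO (5.10 to 10.1) spanned the WT range (6.78 to 8.84). Of the neutrophil sum of 30.2 in HO 2, Ly6g made up 23.1, and Cxcr2 was at most 0.176 in any library. That of 7 B cell markers, of which 2 passed, was lowest in HO 5 (3.95) and highest in HO 4 (122) among HO libraries, with 3.24 to 57.4 in DHO and 6.40 to 8.39 in WT. The B cell sums of HO 1 (5.02) and HO 3 (5.39) lay below every WT library, while their A1 sums were 26.7 and 31.3 FPKM, near or above the 27.2 of HO 2, whose B cell sum was 52.2. The 7 T and NK cell markers measured summed to 16.5 to 22.8 FPKM in DHO, 24.0 to 48.0 in HO and 36.0 to 51.9 in WT. The part of these cells in the A1 result was not tested.

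**Figure D3:**
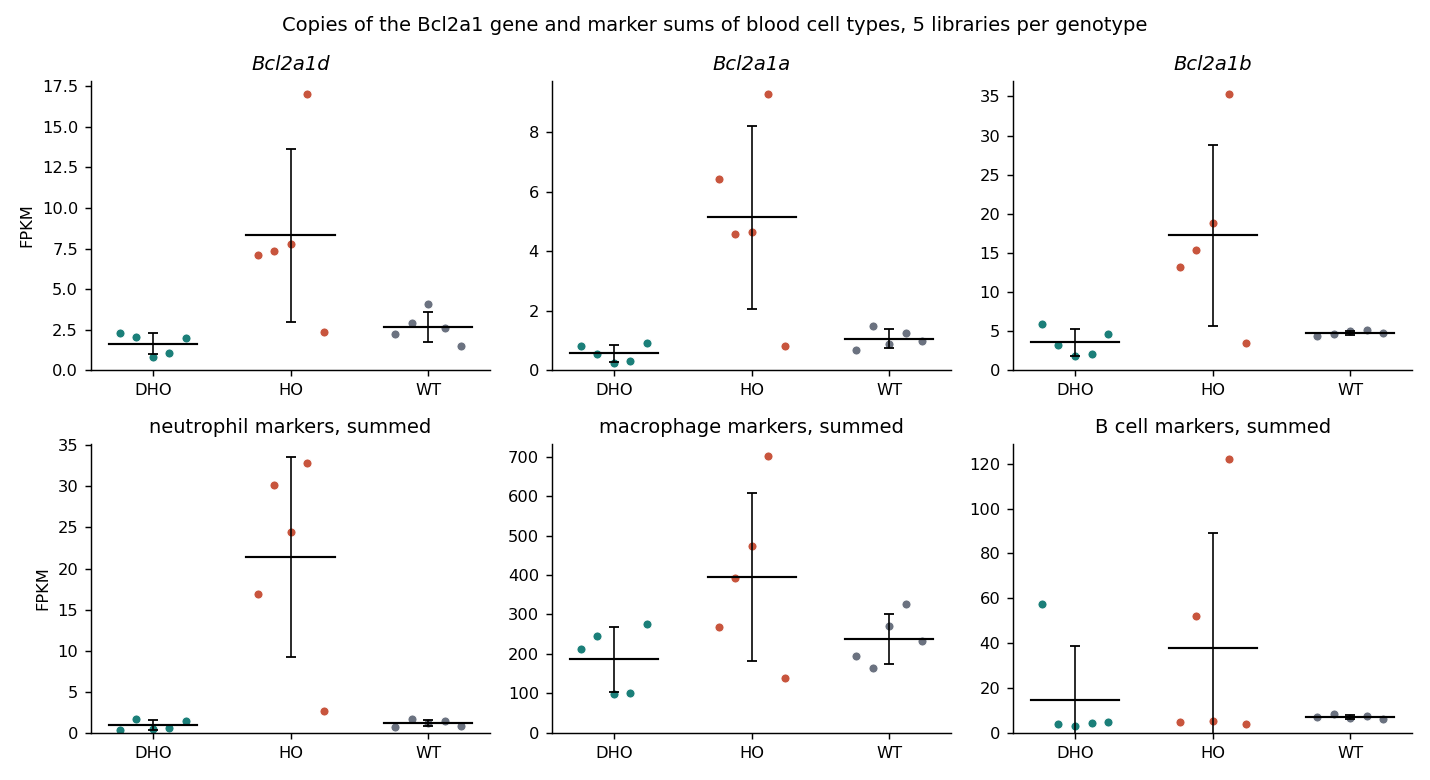
Levels of 3 A1 copies and summed levels of neutrophil, macrophage and B cell markers, in FPKM (vertical axes, linear, from 0), in DHO, HO and WT; points are libraries, left to right replicates 1 to 5, and bars are the mean and SD. HO 4 is the highest and HO 5 the lowest of the HO libraries in each panel.

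Some sums of epithelial markers differed over the whole HO group as well, though not every marker in them went the same way. The 8 stem and cycling crypt markers summed to 115 to 255 FPKM in DHO, 21.1 to 36.9 in HO and 103 to 288 in WT. The 6 general epithelial markers summed to 6971 to 8352 FPKM in DHO, 4480 to 6862 in HO and 7581 to 8498 in WT, while 9 enterocyte markers overlapped between HO (10157 to 13001) and WT (8674 to 11494). Of the general epithelial markers, Krt8 (1508 to 2656 in HO, 3348 to 3875 in WT) and Krt19 (255 to 983, 1317 to 1647) were lower in HO. Cdh1 was higher in every HO library (231.0 to 317) than in WT (210 to 230.5), and Epcam, Krt18 and Cldn7 overlapped. Of the crypt markers, Smoc2 was not lower in HO (10.5 to 25.9 in HO, 7.30 to 19.8 in WT). Paneth and goblet markers summed to 5908 to 7644 in DHO, 3309 to 6892 in HO and 5499 to 10762 in WT, and 6 smooth muscle markers to 385 to 1203 in DHO, 362 to 1634 in HO and 145 to 1043 in WT. The part of these cell types in the changes of the family was not tested.

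Bcl2l15, also called Bfk, a BCL2-like gene of the gastrointestinal tract, had 24.9, 25.6, 35.5, 36.4 and 26.5 FPKM in DHO libraries, 26.6, 37.2, 39.1, 36.8 and 45.4 in HO, and 42.1, 39.9, 27.2, 24.5 and 31.5 in WT. The groups overlapped, with HO 1 the lowest of HO and DHO 3 and DHO 4 the highest of DHO. Its changes were 0.17 (SE 0.17, adjusted p = 0.415) in HO against WT and -0.30 (SE 0.17, adjusted p = 0.144) in DHO against HO. It was called lower in DHO against HO without HO 1, DHO 3 and DHO 4 (-0.60), without HO 1 (-0.42), and with quantile normalization (-0.51), median-of-ratios scaling (-0.55) and voom with those factors (-0.63).

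Set side by side per length, the sum of the 3 member guards was higher in every HO library than in any DHO or WT library. The sum of the 6 pro-death members was not. The guards summed are those called higher in HO, and family genes that are not members were left out. Among those left out, mean FPKM in WT, HO and DHO was 26.3, 15.0 and 28.2 for Bad and 11.1, 9.52 and 18.2 for Bok. It was 7.07, 6.66 and 6.24 for Bcl2l2, and 4.76, 17.2 and 3.56 for Bcl2a1b. The 6 pro-death members summed to 229 ± 18.4 FPKM in DHO, 269 ± 33.5 in HO and 220 ± 4.99 in WT (SD, n = 5 each), and HO 3 (221) lay within the WT range of 216 to 228. Pmaip1 made up 11.7% of that sum in DHO, 33.0% in HO and 12.6% in WT. The 3 guards summed to 61.7 ± 7.82 FPKM in DHO, 98.4 ± 10.7 in HO and 63.1 ± 2.48 in WT, and the lowest HO library (89.0) was above the highest DHO (74.5) and WT (67.4) libraries. Mcl1 made up 75.9% of the guards in DHO, 58.5% in HO and 73.5% in WT, and Bcl2l1 made up 21.5% in DHO, 33.3% in HO and 22.2% in WT. The ratio of the guard sum to the pro-death sum was 0.269 ± 0.0232 in DHO, 0.370 ± 0.0524 in HO and 0.286 ± 0.00692 in WT. HO 1 (0.290) lay within the WT range of 0.278 to 0.296 and the DHO range of 0.244 to 0.300, and the other 4 HO libraries were above both. Of single genes, the ratio of Bcl2l1 to Bax FPKM was 0.254 ± 0.0217 in DHO, 1.08 ± 0.407 in HO and 0.370 ± 0.0392 in WT, and its lowest HO value (0.734) was above its highest DHO (0.282) and WT (0.419) values. The ratio of Pmaip1 to Mcl1 was 0.568 ± 0.0611 in DHO, 1.60 ± 0.803 in HO and 0.595 ± 0.0723 in WT. These sums and ratios are descriptions of transcript levels, and protein was not measured.

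**Figure D4:**
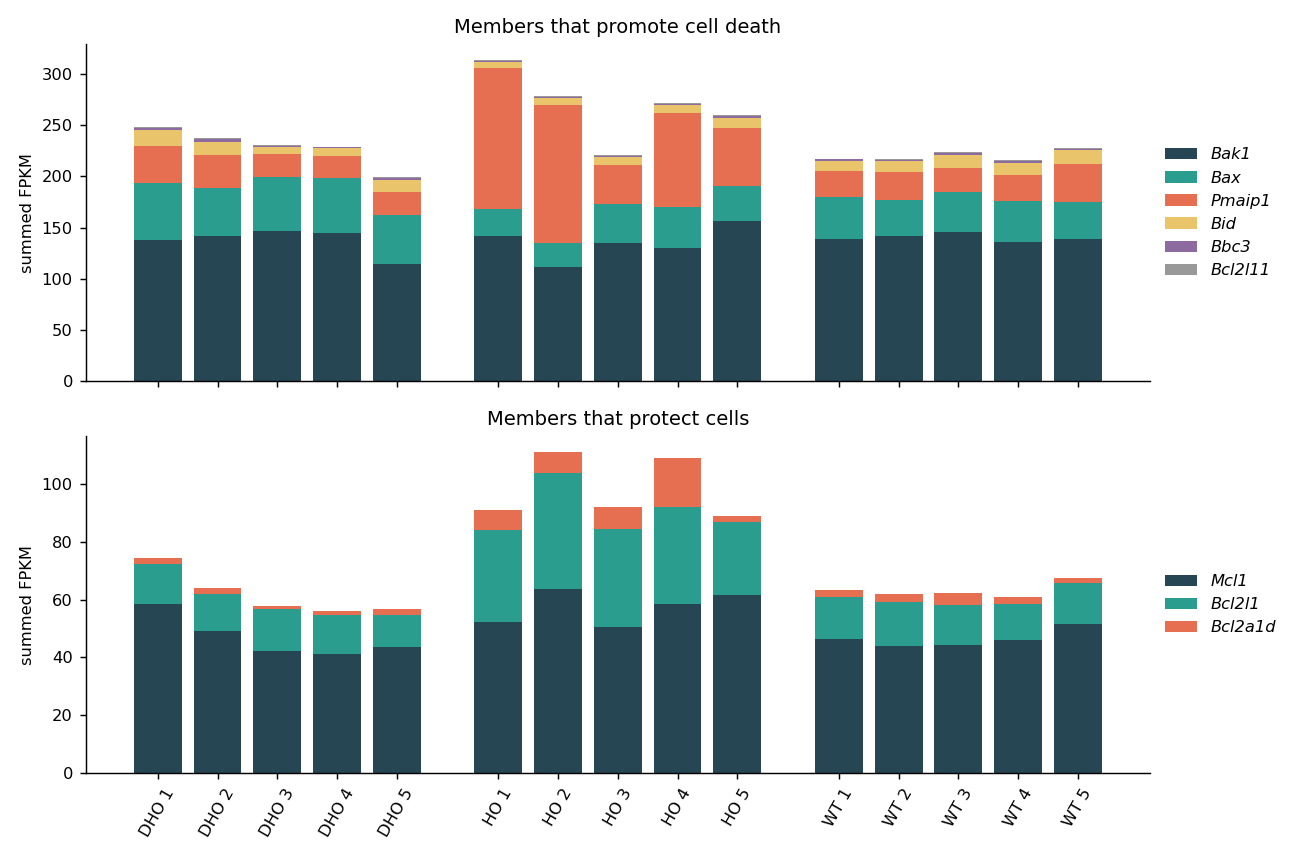
Summed FPKM (vertical axes, linear, from 0) of the members that promote cell death (top) and of those that protect cells (bottom) in each DHO, HO and WT library, stacked by gene. The Pmaip1 segment is largest in HO 1 and HO 2 (138 and 135 FPKM) and the Bcl2l1 segment is larger in all 5 HO libraries than in any DHO or WT library.

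The genes with the pattern most like a member's were taken as the 2 with the smallest mean absolute difference of centred log2(FPKM + 1) over the 15 libraries. The second nearest of Bcl2l1 was Tmsb10 (0.134). The nearest were, for Pmaip1, Ly6m (0.275) and Rdh16 (0.284), and for Bax Eno3 (0.117) and Cops5 (0.122). For Bid they were Dsp (0.0970) and Sqor (0.0976), and for Bcl2a1d S1pr1 (0.195) and its own copy Bcl2a1a (0.216). Those of Mcl1 were Urgcp and Phf1, of Bbc3 Hexim1 and Ppp1r10, of Bak1 Trir and Sec24c, and of Bcl2l15 Slc9a3r1 and Ext1. The difference of Pmaip1 to its nearest gene was the largest of these, but such differences grow with a gene's own spread. The mean absolute deviation of Pmaip1 from its own mean was 0.707. That of Bak1 was 0.0876, where its difference to Trir was 0.0554.

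Beyond the members, 34 other genes of the mitochondrial route were listed, from further family members to caspases, and 30 were tested. In HO against WT 4 were called higher and 12 lower, together 16 of 30, where 55.4% of all genes tested were called. In DHO against HO 13 were called higher and 5 lower, together 18 of 30, where 56.1% of all genes were called. Both shares are near those of all genes. With median-of-ratios scaling 10 were higher and 8 lower in HO against WT, and 11 higher and 10 lower in DHO against HO. In DHO against WT limma called 0 of them. Bik, Hrk, Bcl2l10 and Bcl2a1c did not pass the filter, and Hrk was at 0 in all HO libraries and at most 0.00461 FPKM in a DHO and 0.00468 FPKM in a WT library.

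Of the remaining effector and BH3-only genes, Bad had the clearest change. Bad, a BH3-only sensitizer that binds BCL-XL, had 31.6, 30.6, 25.7, 26.2 and 26.7 FPKM in DHO libraries, 17.8, 12.2, 14.7, 14.9 and 15.4 in HO, and 22.8, 25.7, 27.0, 29.8 and 26.3 in WT. Every HO library was below every DHO and WT library, as was so against WT for 29.8% of all genes tested. Bad fell by 0.78 in HO against WT (SE 0.10, limma adjusted p = 3.39e-05) and rose by 0.87 in DHO against HO (SE 0.10, adjusted p = 1.33e-05). Bok, an effector related to BAX and BAK, rose by 0.86 in DHO against HO (SE 0.25, adjusted p = 0.00909), a call that was lost with median-of-ratios scaling and without HO 2, HO 4 and DHO 1. Bnip3, a mitophagy receptor, rose by 0.65 in HO against WT and fell by 0.73 in DHO against HO, and both calls were lost without HO 2, HO 4 and DHO 1, the second also without HO 1, DHO 3 and DHO 4. Bnip3l, its relative, fell by 0.36 and rose by 0.32 in the same comparisons, and both calls were lost with median-of-ratios scaling, the second also without the filter and in a fit of only DHO and HO.

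Of the 7 guards tested, members included, 5 were called higher in HO against WT and 5 lower in DHO against HO, where 12.4% and 13.4% of all genes tested were called in those directions. Of these 5, 3 are the near-identical copies of A1, whose separate levels are uncertain and whose reads may be shared. Without HO 2, HO 4 and DHO 1 the counts were 1 (Bcl2l1) and 4 of 6, and a fit of only DHO and HO called 3 of 6 lower. The changes of Bcl2 itself were 0.32 (adjusted p = 0.111) and -0.30 (adjusted p = 0.137), and both were called with quantile normalization and median-of-ratios scaling. The BCL2-like genes Bcl2l12, Bcl2l13 and Bcl2l14 were called lower in HO against WT and higher in DHO against HO, with changes from -0.83 to -0.48 and from 0.56 to 1.05. In those directions 42.9% and 42.8% of all genes tested were called. With median-of-ratios scaling Bcl2l12 and Bcl2l14 were not called in HO against WT.

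Downstream of the mitochondria, of 5 apoptosome and caspase genes 1 was called lower in HO against WT and 1 higher in DHO against HO. Of 6 genes of the IAP proteins and their antagonists, 1 was called higher and 1 lower in HO against WT, and 1 higher and 2 lower in DHO against HO. Over all genes tested 12.4% were called higher and 42.9% lower in HO against WT. In DHO against HO 42.8% were called higher and 13.4% lower. These counts moved with scaling. In the IAP list, HO against WT had 4 called higher with median-of-ratios scaling, 3 with quantile normalization and 4 with voom and median-of-ratios factors. Each of these settings called 1 lower. For DHO against HO the same settings called 3, 3 and 4 lower, each with 1 higher. Among the 5 apoptosome and caspase genes, these settings called 1, 2 and 2 higher in HO against WT. They called 1, 1 and 0 of the 5 lower there. In DHO against HO they called 1, 1 and 2 of the 5 lower, each with 1 higher. Casp9, the initiator caspase of the apoptosome, fell by 0.47 in HO against WT (SE 0.12, limma adjusted p = 0.00363) and rose by 0.50 in DHO against HO (SE 0.12, adjusted p = 0.00237). The first call was lost with voom and median-of-ratios factors. Cycs and Apaf1 were not called in either. Xiap, an inhibitor of caspases, had 6.90 to 8.02 FPKM in DHO, 8.46 to 18.3 in HO and 7.00 to 8.36 in WT. It rose by 0.51 in HO against WT (SE 0.15, adjusted p = 0.0101) and fell by 0.53 in DHO against HO (SE 0.15, adjusted p = 0.00717), without overlap of the groups. Of all genes tested, 6.19% had every HO library above every WT library, and 5.44% every DHO library below every HO library. Htra2, a mitochondrial protease that antagonizes such inhibitors, fell by 0.59 and rose by 0.57 in the same comparisons. Septin4, another such antagonist, fell by 0.44 in DHO against HO, a call lost without either set of 3 libraries, without the filter and in a fit of only DHO and HO.

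Of 7 other release and channel genes, 5 were called lower in HO against WT and the same number higher in DHO against HO, where 42.9% and 42.8% of all genes tested were called in those directions. Endog, a mitochondrial nuclease, had 17.5, 18.4, 18.2, 19.5 and 16.7 FPKM in DHO libraries, 9.07, 4.83, 8.43, 6.22 and 7.62 in HO, and 15.9, 13.6, 16.2, 16.4 and 15.4 in WT. Every HO library was below every DHO and every WT library, as was so against WT for 29.8% of all genes tested. Endog fell by 1.03 in HO against WT (SE 0.13, limma adjusted p = 1.77e-05) and rose by 1.24 in DHO against HO (SE 0.13, adjusted p = 3.99e-06). Aifm1, the apoptosis-inducing factor, fell by 0.95 and rose by 0.93, the channel gene Vdac1 fell by 0.90 and rose by 1.01, and Vdac3 fell by 0.67 and rose by 0.70. These 4 genes kept both calls with quantile normalization and median-of-ratios scaling and without either set of 3 libraries. Mff, a fission factor, fell by 0.35 and rose by 0.45, and lost the first call with those scalings, while Vdac2 and Dnm1l were not called. Vdac2, whose change was 0.27 (adjusted p = 0.0932) in HO against WT, was called higher there with quantile normalization, with both median-of-ratios settings (0.54 with scaled FPKM) and without HO 2, HO 4 and DHO 1 (0.42). In DHO against HO its change of -0.16 was called lower with quantile normalization and with voom and median-of-ratios factors, and so was that of Dnm1l in the last (-0.25). The crypt and general epithelial marker sums given above were also lower in HO, though not every marker in them was. The part of those cells in these changes was not tested.

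**Figure D5:**
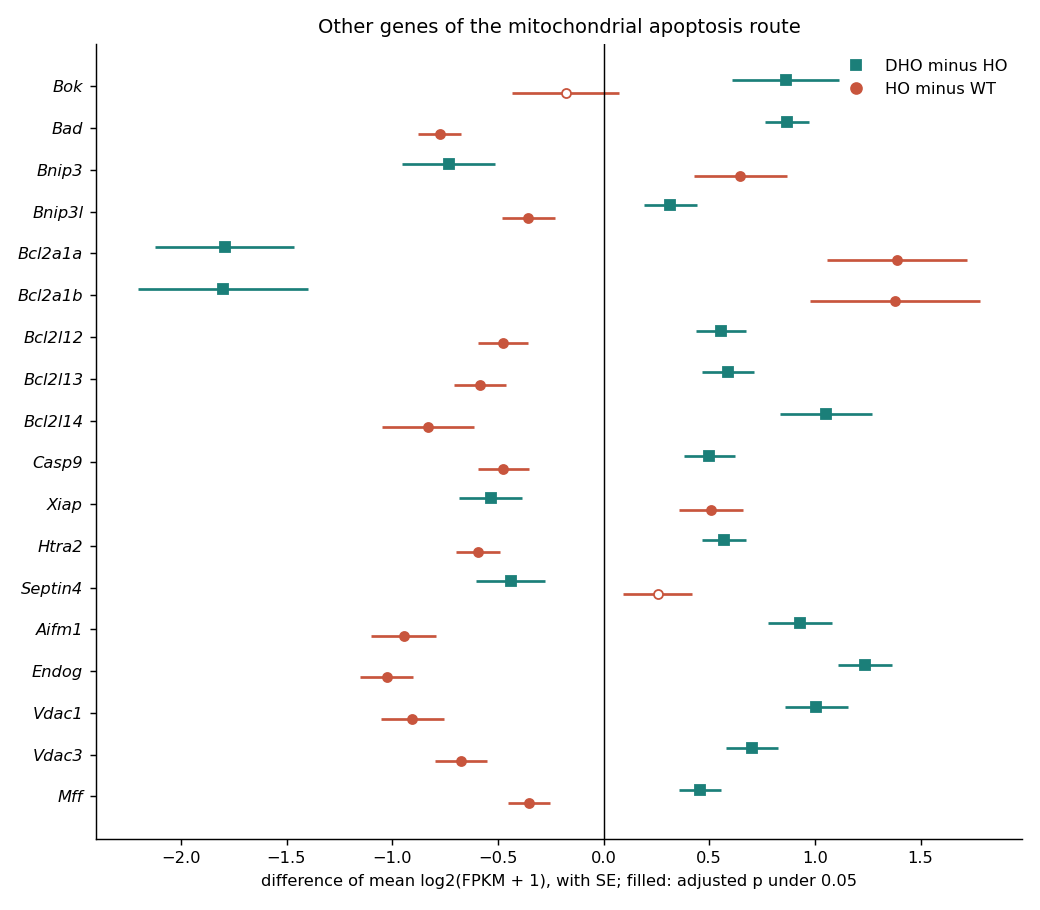
Difference of mean log2(FPKM + 1) with SE (horizontal axis) for the other genes of the mitochondrial route that were called in at least 1 of DHO minus HO (squares) and HO minus WT (circles); filled symbols have an adjusted p under 0.05. Endog, Aifm1, Vdac1 and Bad lie left of 0 in HO minus WT and right of 0 in DHO minus HO, and the copies of A1 lie the other way.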

How the data were processed

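The authors deposited 1 table of values per gene and library for whole ileum. HTSeq, HISAT2, fastp and mm10 are named in the submitters' processing notes; versions, annotation and the handling of strand and shared reads are not given in the sources used here. The unit of the deposited values, FPKM, was read from the values: within a gene they were whole reads (tolerance 0.02) times a step for 99.99% of 24836 genes. No column was left unmapped.

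Members and gene lists were chosen with earlier results of these data known. Genes were tested where 5 or more libraries reached 1 FPKM. limma 3.58.1 (R 4.3.3; trend, robust) was fitted to log2(FPKM + 1) over all 15 libraries, two-sided, with Benjamini-Hochberg adjustment over all genes tested; it was tested on simulated data. All members are named, other listed genes where called or counted with their list, and the 2 genes most alike for each member tested. Alternatives were other filters, a pseudocount of 0.1, quantile and median-of-ratios scaling, voom on recovered reads, fits of only 2 groups, and leaving out libraries. Read counts carry no molecular identifiers, so depth describes counting error only. The replicate numbers follow the order of deposition and pair nothing. Some results of listed or nearest genes are not reported here.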

Additional observations from a re-analysis of the deposited data

Results flagged for a closer look

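For each member the most distant library of each group was set against the others with Dixon's ratio (critical value 0.71 for 5 libraries), in 30 groups. Chance gives about 1 such library in 20 groups, and 2 were found. Bak1 in DHO 5 was 114 FPKM, below the next DHO library at 138 FPKM. Pmaip1 in WT 5 was 36.7 FPKM, above the next WT library at 27.2 FPKM, and it is the WT library that HO 3 (37.5 FPKM) only just passed.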

How the results depend on the processing

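Changes of Pmaip1 and Bcl2l1 in both HO comparisons, and of Bax and Bcl2a1d in DHO against HO, kept direction and call in all 25 alternatives. Signs turned only where no call was made. In HO against WT, Bax was 0.0023 with median-of-ratios scaling and 0.059 with voom and those factors, and Bak1 0.011 (quantile), 0.20 (median-of-ratios), 0.25 (voom with those factors) and 0.036 (without HO 2, HO 4 and DHO 1). In DHO against HO, Bak1 was -0.086, -0.22, -0.29 and -0.080 in the same settings and -0.017 without HO 1, DHO 3 and DHO 4, where Bcl2l11 was 0.017. In DHO against WT, Bid was 0.14 and Pmaip1 0.10 without HO 1, DHO 3 and DHO 4, Bbc3 -0.041, Bcl2l11 -0.020 and Mcl1 -0.077 without HO 2, HO 4 and DHO 1, and Mcl1 -0.022 with quantile normalization. Leaving out 1 library gave -0.040 to 0.089 for Bak1 in DHO against HO, and in DHO against WT -0.066 to 0.024 for Bak1, -0.041 to 0.20 for Bbc3, -0.039 to 0.072 for Bcl2l11, -0.077 to 0.048 for Mcl1 and -0.17 to 0.041 for Pmaip1.

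Members called higher in HO against WT were 2 without HO 2, HO 4 and DHO 1, and members called lower were 0 without the filter, with quantile, median-of-ratios or voom median-of-ratios scaling, and without HO 2, HO 4 and DHO 1 (0 to 2 with 1 library left out). Members called higher in DHO against HO were 3 without HO 1, DHO 3 and DHO 4 (1 to 3 with 1 library left out), and in DHO against WT 1 in the fit of 2 groups.

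Over all genes, 1406 were called higher and 4867 lower in HO against WT. With quantile, median-of-ratios and voom median-of-ratios scaling 2505, 2494 and 2747 were higher and 3154, 2860 and 2631 lower, and 852 were higher without HO 2, HO 4 and DHO 1. In DHO against HO 4846 were higher and 1513 lower; 3140 (median-of-ratios) and 2807 (voom with those factors) were higher, 2595, 2543 and 2919 lower with the 3 scalings, and 850 lower without HO 2, HO 4 and DHO 1. In DHO against WT 9 were higher and 18 lower; higher were 4 (median-of-ratios), 5 (voom, totals), 3 (voom, median-of-ratios), 93 (2 groups) and 28 (without HO 1, DHO 3 and DHO 4), lower were 11 (median-of-ratios), 8 (voom, median-of-ratios), 92 (2 groups) and 36 (without HO 2, HO 4 and DHO 1), and 1 to 35 higher and 6 to 45 lower with 1 library left out. The cause of these shifts was not tested. No paired analysis was possible because the labels give no replicate numbers shared between groups. Bcl2a1d in DHO 3 rests on 26 reads, which limits its precision.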
